A study of Rattus rattus with 6 samples.

Results

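The mitochondrially encoded subunits of complex I are the 7 genes Mt-nd1 (ENSRNOG00000030644), Mt-nd2 (ENSRNOG00000031033), Mt-nd3 (ENSRNOG00000033615), Mt-nd4 (ENSRNOG00000029707), Mt-nd4l (ENSRNOG00000031053), Mt-nd5 (ENSRNOG00000029971) and Mt-nd6 (ENSRNOG00000029042). They were taken by Ensembl identifier, together with the symbol paired with each identifier when the set was defined, from a table of 23976 genes, and all 7 were found. Levels were measured by RNA sequencing in the left ventricle of wild type male Wistar-Kyoto rats, an inbred strain with normal blood pressure. Young adults were sampled at 3 months and old adults at 24 months, with 3 libraries at each age and no treatment other than natural ageing. The labels give each library its own animal number within its age group. The old libraries are called OH1, OH2 and OH5 after their columns, because those numbers do not match the animal numbers of the old samples.

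Complex I, or NADH dehydrogenase, is the entry point of electrons from NADH into the respiratory chain of the inner mitochondrial membrane and pumps protons as it passes them on to ubiquinone. Heart muscle draws most of its ATP from this chain, and its mitochondrial transcripts are correspondingly abundant. The 7 mitochondrially encoded subunits lie in the membrane arm, while the remaining subunits are encoded in the nucleus. The mitochondrial genome is transcribed as long precursors from both strands, which are then cut at the tRNAs that separate most genes. All of these genes but Mt-nd6 are read from the heavy-strand promoters. Mt-nd6 is the only mRNA that comes from the light-strand transcript. Mt-nd4l and Mt-nd4 overlap and stay joined on a single mature mRNA.

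A gene table of the black rat, Rattus rattus (the species named in the labels, although the strain and the genome build belong to Rattus norvegicus), lists 13 protein-coding mitochondrial genes, of which 7 are of complex I. In that table's order ND1 and ND2 stand at places 1 and 2, ND3, ND4L, ND4, ND5 and ND6 at places 8 to 12, and the 6 genes of other complexes at the remaining places. It holds 0 of the 23976 identifiers of the expression table, so it gave no member another symbol and none was dropped. The symbols of the members could therefore not be checked, and the 6 other mitochondrial mRNAs could not be picked out by name. In their place, abundance was used: 12 genes averaged 10000 TPM or more (TPM being a transcript abundance corrected for length and brought to the same sum in every library), 6 of them members and 6 without a symbol here. Ventricular marker genes and nuclear complex I genes could not be examined either, for want of symbols. In ventricular tissue, fewer cells of a type and less RNA per cell cannot be told apart.

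Every library summed to 1000000 TPM, so the read depth is unknown and each value is a part of a fixed whole. The 15 genes that averaged 1000 TPM or more held 90.8% ± 2.42 of TPM in young and 94.3% ± 0.506 in old ventricle (SD, n = 3). Young replicate 1 stood apart from the other young libraries on this measure, at 93.6% against 89.4% and 89.5%, and lay close to the old libraries at 94.0% to 94.9%. Where it decided a call or an overlap of groups, the value without it is given.

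The heavy-strand members were among the most abundant transcripts of the ventricle. Mt-nd1, which sits where the membrane arm meets the matrix arm, had the highest level of the 7 in 6 of 6 libraries, at 80215 ± 7189 TPM (mean ± SD over all 6 libraries), and its mean ranked 5 among all genes. Mt-nd2 followed at 57855 ± 5827 TPM and Mt-nd3 at 56018 ± 9050 TPM. These neighbours did not differ beyond their spread: Mt-nd2 was the higher in 4 of 6 libraries. Mt-nd4 averaged 43407 ± 5500 TPM and lay below Mt-nd3 in 5 of 6 libraries, and Mt-nd4l averaged 38401 ± 6201 TPM. Mt-nd4 was above Mt-nd4l in 3 of 6 libraries, so this pair was not separated.

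Mt-nd5, which with Mt-nd2 and Mt-nd4 belongs to the antiporter-like subunits of the membrane arm, was sixth of the 7 in every library, at 21904 ± 1788 TPM. Its range did not touch that of Mt-nd4l, which was 1.39 to 2.03 times higher within each library. The light-strand gene Mt-nd6 was last in every library, at 667 ± 352 TPM. Within a library Mt-nd5 exceeded it 14.4 to 59.2 times. Along the gene order given above, the means fell from Mt-nd1 to Mt-nd2 and from Mt-nd3 to Mt-nd5, except that Mt-nd4l precedes Mt-nd4 and had the lower mean.

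**Figure D1:**
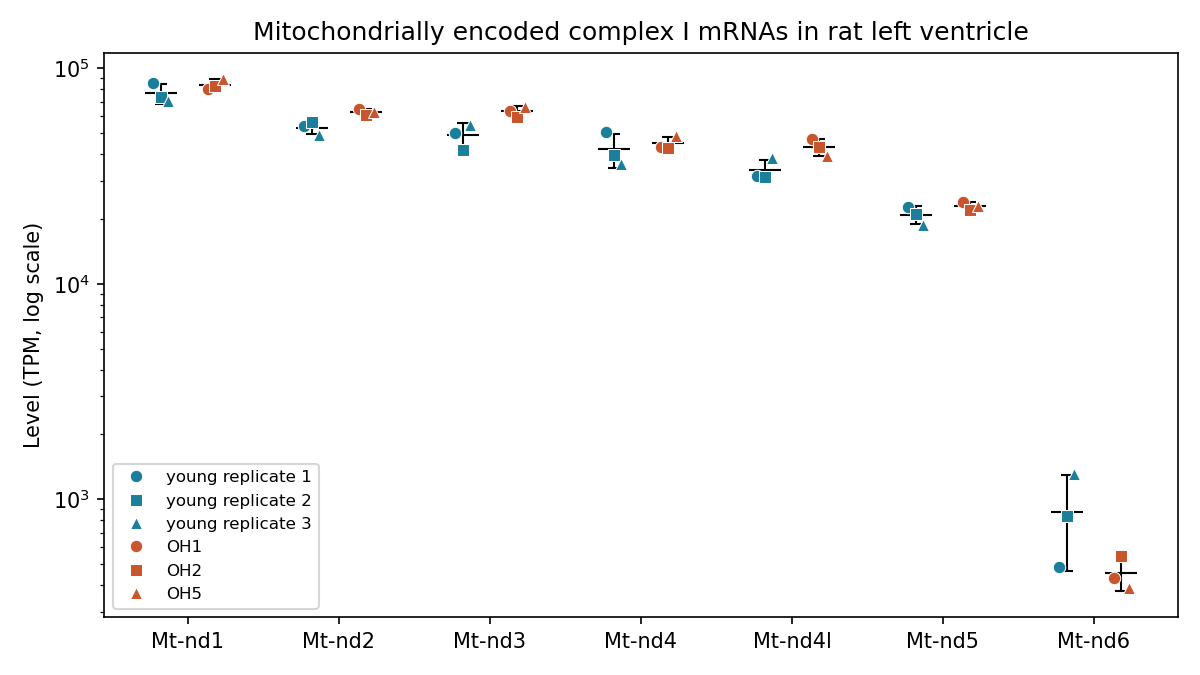
Level of each complex I mRNA in TPM on a log scale, with 1 point per library, young libraries in blue and old libraries in orange; black bars give mean ± SD of 3 libraries. The 6 heavy-strand mRNAs lie within 18802 to 89476 TPM, and Mt-nd6 lies between 389 and 1307 TPM.

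In each old library the complex I mRNAs together made up a larger part of TPM than in any young library. Their summed level was 29.5%, 26.4% and 26.9% of all TPM in young replicates 1, 2 and 3, and 32.2%, 31.1% and 33.0% in OH1, OH2 and OH5. The groups did not overlap, with young replicate 1 the young library nearest to the old ones. The means were 27.6% ± 1.64 in young and 32.1% ± 0.907 in old (SD, n = 3), 1.16 times higher in old, with an exact permutation p = 0.1 (two-sided). No smaller p can be reached with 3 libraries per age.

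The 6 other genes of at least 10000 TPM did not show this difference in their sum, although single genes among them differed in direction. They summed to 60.5% ± 2.47 of TPM in young and 60.7% ± 0.518 in old, with overlapping groups (n = 3, exact two-sided permutation p = 0.8). The difference between both sets was tested through their ratio, which does not depend on any other transcript. The members summed to 0.470, 0.457 and 0.442 of the level of those 6 genes in young replicates 1 to 3, and to 0.530, 0.510 and 0.548 in OH1, OH2 and OH5. All 3 old ratios lay above all 3 young ones, with means of 0.456 ± 0.0137 and 0.529 ± 0.0193 (n = 3, exact permutation p = 0.1, two-sided, the lowest this design can give).

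The same direction was seen with the denominators in which the members themselves are counted. Of the 15 genes of at least 1000 TPM, the sum of the members was 30.4% ± 0.996 in young and 34.0% ± 0.798 in old (n = 3). Mt-nd6 is in that sum although its own mean is below 1000 TPM. Of the 12 genes of at least 10000 TPM it was 31.4% ± 0.632 in young and 34.6% ± 0.824 in old. Young replicate 1 lay closer to the other young libraries here than in all TPM, but was still the highest of them. The young values were 32.0%, 31.4% and 30.7%, and the lowest old value was 33.8%. Both comparisons reached the lowest exact permutation p of the design, 0.1.

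Part of the difference lay in Mt-nd3 and Mt-nd4l, described next. With both left out of the members and of the denominator of 12 genes, the remaining members held 25.3%, 24.8% and 22.5% in young and 25.8%, 25.5% and 27.2% in old. The groups still did not overlap, but the gap between the highest young and the lowest old library was 0.138 percentage points. The means differed by a factor of 1.08.

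The column names also end in _1 or _2, a suffix that the labels do not explain. Among the columns ending in _1, the 2 young libraries averaged 28.2% of all TPM and OH1 was at 32.2%. Among those ending in _2, young replicate 2 was at 26.4% and the 2 old libraries averaged 32.1%. The old side was higher within each suffix.

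**Figure D2:**
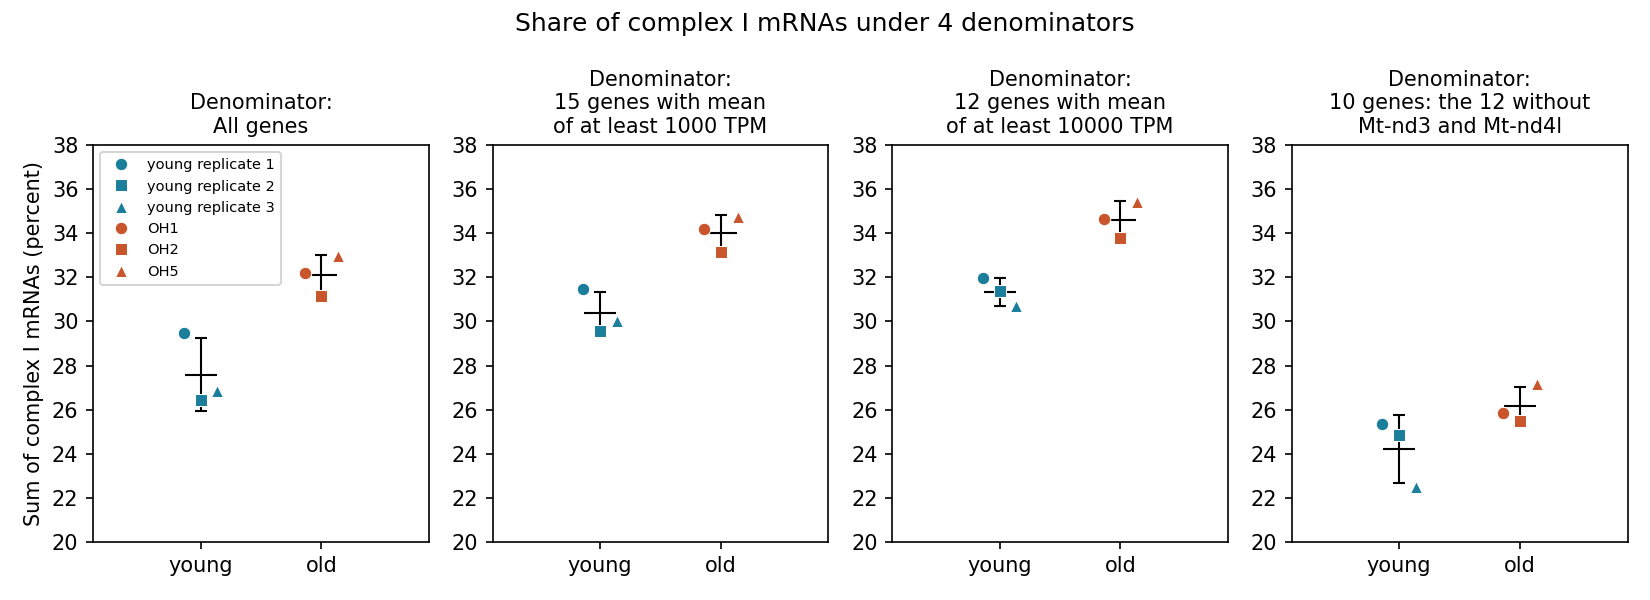
Summed complex I mRNAs as a percentage of 4 denominators, with 1 point per library and mean ± SD of 3 libraries per age; in the last panel Mt-nd3 and Mt-nd4l are left out of both sides. Old libraries lie above young ones in each panel, with a gap of 0.138 percentage points in the last.

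Gene by gene, Mt-nd3 and Mt-nd4l, both small membrane subunits, had the largest positive fold changes. Mt-nd3 was at 50228, 41868 and 54771 TPM in young replicates 1 to 3 and at 63539, 59368 and 66333 TPM in OH1, OH2 and OH5. Every old library was above every young one. Its mean was 48956 ± 6545 TPM in young and 63080 ± 3505 in old, a log2 fold change of 0.37 ± 0.16 (SE), and the adjusted p of limma's test across all genes was 0.0514, which misses the threshold of 0.05. Without young replicate 1 it passed, with limma giving a log2 fold change of 0.40 and an adjusted p = 0.0165, in a fit where 0.801% of tested genes passed as higher in old. As a share of the 12 genes of at least 10000 TPM, Mt-nd3 made up 5.56% ± 0.651 in young and 6.80% ± 0.348 in old and again did not overlap.

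Mt-nd4l was at 31512, 31398 and 38150 TPM in young replicates 1 to 3 and at 46845, 43267 and 39236 TPM in OH1, OH2 and OH5. The groups did not overlap, but young replicate 3 and OH5 were close. Its log2 fold change was 0.36 ± 0.18 (SE; limma adjusted p = 0.0746). As a share of the 12 genes its groups did overlap, at 3.84% ± 0.480 in young and 4.65% ± 0.412 in old (n = 3, exact two-sided permutation p = 0.2). They also overlapped as a share of the 15 genes, but not as a ratio to the 6 other genes of at least 10000 TPM. Mt-nd4, the other reading of the same mRNA, had overlapping groups in TPM and a log2 fold change of 0.11. The difference for Mt-nd4l was therefore not seen in both readings of that mRNA.

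Mt-nd2 was at 53872, 56143 and 49194 TPM in young replicates 1 to 3 and at 64653, 60859 and 62409 TPM in OH1, OH2 and OH5. All old libraries were higher, by 1.18 times on average, with a log2 fold change of 0.24 ± 0.16 (SE; limma adjusted p = 0.171). As a share of the 15 genes of at least 1000 TPM it was 5.85% ± 0.400 in young and 6.64% ± 0.202 in old, without overlap (n = 3, exact two-sided permutation p = 0.1), and the groups did not overlap as a ratio to the 6 other genes of at least 10000 TPM either. Its share of the 12 genes did overlap, since young replicate 2 at 6.67% lay above OH2 at 6.60%.

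Mt-nd1, Mt-nd4 and Mt-nd5 had overlapping groups. Mt-nd1 was at 85279, 73481 and 70458 TPM in young replicates 1 to 3 and at 79870, 82729 and 89476 TPM in OH1, OH2 and OH5. Young replicate 1 exceeded OH1 and OH2, and the log2 fold change was 0.14 ± 0.15 (SE; limma adjusted p = 0.387). Mt-nd4 was at 50624, 39405 and 35978 TPM in young and at 42938, 42851 and 48644 TPM in old, in the same order of libraries. Here young replicate 1 was the highest of all 6, and the log2 fold change was 0.11 ± 0.17 (limma adjusted p = 0.568). It was 0.25 without young replicate 1 (0.0917) and 0.002 without young replicate 3 (0.993). Mt-nd5 was at 22695, 21136 and 18802 TPM in young and at 23854, 21878 and 23059 TPM in old. Young replicate 1 lay above OH2, and the log2 fold change was 0.14 ± 0.20 (limma adjusted p = 0.509). For each of these 3 genes the overlap came from young replicate 1: both other young libraries lay below all old ones. Without it the log2 fold change was 0.22 for Mt-nd1 and 0.20 for Mt-nd5, and neither passed (limma adjusted p = 0.0845 and 0.204). Without young replicate 3 these values were 0.08 and 0.07.

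Mt-nd6, the light-strand member, went the other way and was the only one to pass the threshold. It was at 485, 840 and 1307 TPM in young replicates 1 to 3 and at 431, 546 and 389 TPM in OH1, OH2 and OH5. The groups overlapped because young replicate 1 lay below OH2, and the young libraries spanned a wider range than the old ones. The log2 fold change was -0.84 ± 0.34 (SE; limma adjusted p = 0.0392). Whether it passed depended on single libraries. Without young replicate 3 the log2 fold change was -0.50 (limma adjusted p = 0.337) and without young replicate 1 it was -1.21 (0.000667). Leaving out young replicate 2 or any old library also ended the call, at limma adjusted p values of 0.0829 to 0.178, while the log2 fold change stayed between -0.98 and -0.74. With the column suffix as a second term the value was -0.87 (0.0781). The count of all genes called lower moved with these fits too. It was 4449 of 9502 tested genes with all libraries, 8398 of 9117 without young replicate 1 and 690 of 8931 without young replicate 3. It was 361 to 715 without young replicate 2 or an old library, and 1344 with the suffix as a term.

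These calls have to be read against the whole table. On the deposited scale, of 9502 tested genes 46.8% passed the threshold as lower in old and 0.884% as higher. The tested genes had a median log2 fold change of -0.53. 1 of 7 members (Mt-nd6) was called lower, the direction of nearly all calls, and 0 of 7 higher, with 3 of 7 at an unadjusted limma p below 0.05, a level reached by 62.9% of tested genes. Groups that did not overlap with old higher were found for 3 of 7 members and for 0.81% of all tested genes. Mt-nd4l is among these 3, although the groups of Mt-nd4, on the same mRNA, overlapped. The 6 heavy-strand members had log2 fold changes above those of 97.0% to 98.7% of tested genes, while Mt-nd6 was above 10.8%. Among the 6 other genes of at least 10000 TPM, 4 had a positive log2 fold change, the median was 0.01 against 0.19 for the 6 heavy-strand members, and without overlap 0 of 6 were higher and 1 of 6 lower. Their log2 fold changes ran from -0.21 to 0.33, against 0.11 to 0.37 for the heavy-strand members, so the ranges of both sets overlapped. The share of all tested genes that were lower in old without overlap was not computed, so the 1 of 6 cannot be set against it.

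Median-ratio scaling sets the typical gene to no change. It moved the median over the tested genes to -0.02 (log2) and raised the log2 fold change of every member. The log2 fold changes were then 1.05 ± 0.35 for Mt-nd3, 1.04 ± 0.30 for Mt-nd4l, 0.92 ± 0.34 for Mt-nd2, 0.82 ± 0.38 for Mt-nd1, 0.82 ± 0.34 for Mt-nd5 and 0.79 ± 0.40 for Mt-nd4 (SE), and none passed, with limma adjusted p values from 0.0868 for Mt-nd4l to 0.276 for Mt-nd4. On this scale 2.74% of tested genes passed as higher in old and 3.38% as lower, against 0 of 7 members in either direction by limma, with 4 of 7 members at an unadjusted p below 0.05, a level reached by 24.1% of tested genes. Without young replicate 1 all 6 passed, at log2 fold changes of 1.11 to 1.31 and limma adjusted p values of 0.0268 to 0.0393, where 1.84% of the genes tested in that fit passed as higher in old. Groups did not overlap, with old higher, for 5 of 7 members and for 12.8% of tested genes. The groups of Mt-nd4 overlapped, while those of Mt-nd4l, on the same mRNA, did not.

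Mt-nd6 did not pass the threshold on that scale. Its scaled levels were 530, 578 and 856 in young replicates 1 to 3 and 517, 653 and 551 in OH1, OH2 and OH5, with a log2 fold change of -0.17 ± 0.23 (SE; limma adjusted p = 0.702). Young replicate 3 was the highest and the other 5 libraries lay between 517 and 653. The distance of Mt-nd6 from the median gene was -0.31 on the deposited scale and -0.15 after median-ratio scaling, on the log2 scale. On both scales Mt-nd6 lay nearer to the median gene than to any heavy-strand member.

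**Figure D3:**
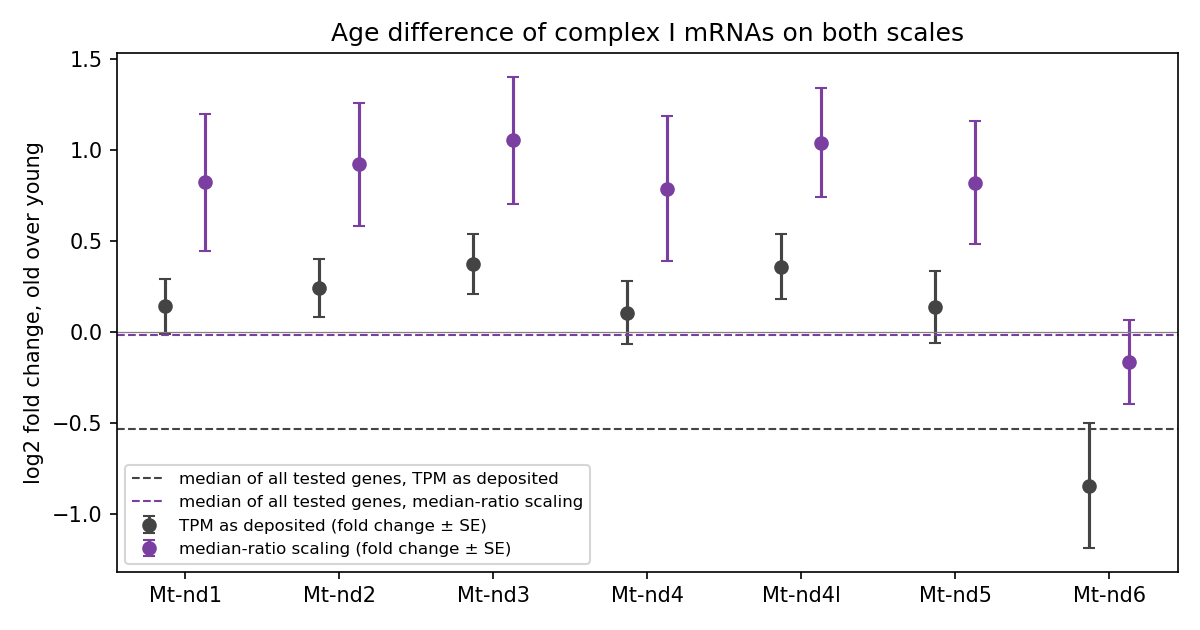
log2 fold change (old over young, ± SE from limma) of each complex I mRNA with TPM as deposited in grey and after median-ratio scaling in purple; dashed lines give the median of all tested genes at -0.53 and -0.02. The heavy-strand members lie above the median line on both scales and Mt-nd6 lies below it.

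Within the complex I pool, the mix of heavy-strand mRNAs did not separate the ages. Mt-nd1 made up 27.7% ± 1.36 of the pool in young and 26.2% ± 1.23 in old (SD, n = 3), and Mt-nd2 19.3% ± 1.70 and 19.5% ± 0.567. Mt-nd3 made up 17.8% ± 2.35 and 19.6% ± 0.540, Mt-nd4 15.2% ± 1.91 and 13.9% ± 0.735, Mt-nd4l 12.3% ± 1.78 and 13.4% ± 1.37, and Mt-nd5 7.57% ± 0.513 and 7.14% ± 0.228. All of these groups overlapped, with exact two-sided permutation p values from 0.3 to 0.8. The old libraries were closer to each other than the young ones for each of the 7 shares.

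**Figure D4:**
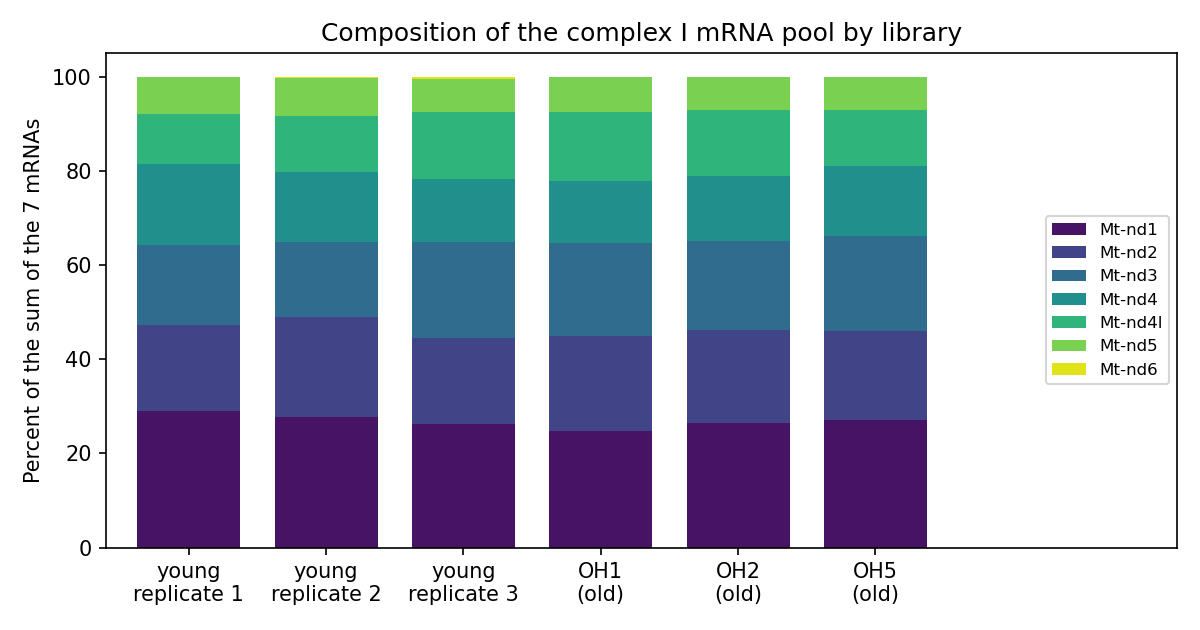
Composition of the summed complex I mRNAs in each library, as a percentage of the 7 genes' TPM. Mt-nd1 takes 24.8% to 28.9% of the pool, and Mt-nd6 is a line at the top, at 0.118% to 0.487%.

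Ratios between members showed how closely single genes kept together. Mt-nd4 to Mt-nd1 was the tightest of the 6 ratios computed between heavy-strand members, at 0.511 to 0.594 over the 6 libraries. Mt-nd4l and Mt-nd4 share an mRNA and TPM corrects for length, so their ratio shows how far both readings of that mRNA differ. The Mt-nd4l to Mt-nd4 ratio was 0.622, 0.797 and 1.06 in young replicates 1 to 3 and 1.09, 1.01 and 0.807 in OH1, OH2 and OH5. It spanned a 1.75-fold range and the ages overlapped (n = 3, exact two-sided permutation p = 0.4). The mean ratio was 1.17 times higher in old, at 0.827 ± 0.220 in young and 0.969 ± 0.146 in old. The Mt-nd3 to Mt-nd4l ratio, between neighbours on the genome, ran from 1.33 to 1.69. The ratios of Mt-nd3 and of Mt-nd4l to Mt-nd4 were both lowest in young replicate 1 and both highest in young replicate 3 and OH1.

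Mt-nd6 was set against the 6 heavy-strand members as a ratio of the light-strand to the heavy-strand transcripts. Per 1000 TPM of those 6 it stood at 1.65, 3.19 and 4.89 in young replicates 1 to 3 and at 1.34, 1.76 and 1.18 in OH1, OH2 and OH5. Young replicate 1 lay within the range of the old libraries, and the other 2 young libraries lay above it. The means were 3.24 ± 1.62 in young and 1.43 ± 0.297 in old, a ratio of old to young of 0.440 (n = 3, exact two-sided permutation p = 0.2). Without young replicate 1 the change of the mean from young to old was -64.7% (exact two-sided permutation p = 0.2). Across libraries the ratio was high where the part of TPM outside the abundant genes and members was high. That part was 6.34%, 10.6% and 10.4% in young replicates 1 to 3 and 5.79%, 5.99% and 5.05% in OH1, OH2 and OH5. Per 1000000 TPM of that part, Mt-nd6 was at 7644, 7955 and 12575 in young replicates 1 to 3. In OH1, OH2 and OH5 it was at 7441, 9118 and 7718. These groups overlapped, with a ratio of old to young means of 0.862 (n = 3, exact two-sided permutation p = 0.6). Whether that part accounts for the Mt-nd6 result was not tested.

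**Figure D5:**
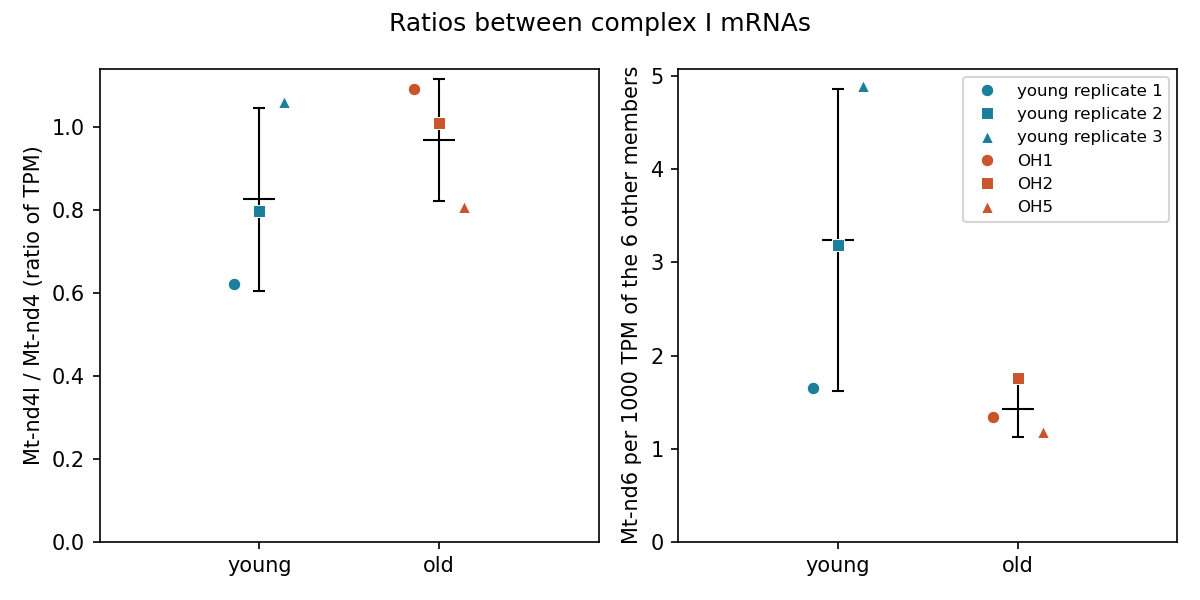
Ratio of Mt-nd4l to Mt-nd4 (left) and Mt-nd6 per 1000 TPM of the 6 other members (right), with 1 point per library and mean ± SD of 3 libraries per age. The left ratio runs from 0.622 to 1.09 with both ages mixed; on the right, young replicate 1 at 1.65 lies among the old libraries.

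Of 9593 other genes averaging 1 TPM or more, the 5 whose log2(TPM + 1) followed the log2 sum of the members most closely over the 6 libraries were genes of low level, at means of 1.56 to 3.53 TPM. The closest was ENSRNOG00000000165 (Pearson r = 0.949), with young and old means of 0.469 and 2.65 TPM, followed by ENSRNOG00000008816 (r = 0.927), with 0.697 and 4.54 TPM. All 5 had higher means in old. The 6 libraries fall into 2 ages and the genes were picked as the closest of many, so these values describe likeness only. All 5 lay outside the 12 genes of at least 10000 TPM.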

How the data were processed

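Total RNA of the left ventricle was depleted of ribosomal RNA and made into directional paired-end libraries, per the labels' protocols. The authors deposited TPM per gene, made with Salmon on mRatBN7.2 per the submitters' processing notes. The Salmon version was not given in the sources used here, nor were the annotation, the use of strand and the handling of nuclear copies of mitochondrial DNA, and their effect on the members was not tested. TPM keeps no depth, so no counting interval could be given.

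Since the table held no counts, the design's test for TPM was used: limma-trend (limma 3.58.1, R 4.3.3) on log2(TPM + 1), with no covariate beside age. A gene was tested when 3 or more libraries reached 1 TPM, which all 7 members did in all 6 libraries. Fold changes on this scale understate those of low genes. P-values were adjusted over 9502 genes by the Benjamini-Hochberg method. The prior degrees of freedom were 91.8 with values as deposited, where SE and p rest mostly on a spread shared across genes, and 3.56 after median-ratio scaling. On the deposited scale they were 10.3 without young replicate 1. They were infinite without any other single library and with the suffix as a term, so those p-values use no spread of the single gene. The p-values of these fits therefore do not share a basis. Shares, sums and ratios were compared by exact two-sided permutation tests (scipy 1.17.1). Over the 74 such tests computed, many of them on related measures, the lowest Benjamini-Hochberg adjusted value was 0.264. In a simulation of the comparison as deposited (9502 genes, no shared library effects), 51% of changes of 1 log2 unit and 95% of changes of 2 were recovered. It changed 200 genes, up and down alike, unlike the mostly lower calls of the data, and 9 unchanged genes were called. Changes as small as those of the heavy-strand members (0.11 to 0.37) were not simulated.

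The 3 young columns were matched by animal number, and the old columns to their group only. The share of all mitochondrial mRNA was replaced, as the design provided, by the share of genes averaging 1000 TPM or more. The 10000 TPM bound, the share within the members, the ratio to other abundant genes and the column suffix were chosen after the data were seen. The members and lists were chosen with earlier results of these data known. All 7 members are named by rule, with the 5 genes most like their sum. The nuclear complex I list and the cell type markers could not be tested without symbols. No sequences are printed.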

Additional observations from a re-analysis of the deposited data

How the results depend on the processing

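The count of genes past the threshold (4533; 84 higher, 4449 lower) fell to 1 without a filter on low values (0 higher, 1 lower; 6462 at an unadjusted limma p below 0.05), to 581 with median-ratio scaling (260 and 321), to 577 with quantile normalization (266 and 311), to 1385 with the column suffix as a term (41 and 1344) and to 155 with both median-ratio scaling and the suffix (96 and 59). Without single libraries the count was 382 to 8471 (21 to 73 higher, 361 to 8398 lower), highest without young replicate 1. The count of members called higher was 0, and 1 without young replicate 1 (6 after median-ratio scaling). The count called lower was 1, and 0 without a filter, with either scaling, with the suffix as a term, with suffix and median-ratio scaling together, and without each library but young replicate 1. Of 126 alternative log2 fold changes of members, 101 kept direction and side of the threshold, 7 came to pass it, 15 ceased to and 3 reversed. Quantile normalization gave -0.14 for Mt-nd4, -0.0040 for Mt-nd4l and 0 for Mt-nd2, and ranks among the few abundant genes decide these values by construction. The value of 0 for Mt-nd2 has no direction, although it was counted among the 101. Mt-nd6 was 0.044 with median-ratio scaling without young replicate 3.

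The summed share was 12.1% higher in old with the 1000 TPM bound, 16.02% as a ratio to the 6 other abundant genes, 8.01% without Mt-nd3 and Mt-nd4l, and 10.6% to 14.2% when single libraries were left out. Summed TPM were 16.4% higher in old (14.0% to 20.5% without single libraries) and 80.1% after median-ratio scaling. As shares of the members alone, Mt-nd1 was -5.38%, Mt-nd4 -7.99% and Mt-nd5 -5.60% against rises of 5.97%, 2.94% and 5.80% with the 1000 TPM bound, since the sum of the members itself rose. The share of Mt-nd4 was -3.27% without young replicate 3 and -1.14% without OH5, with 12.6% as the highest value without a library. Mt-nd6 to the other members stayed between -64.7% and -41.0%, and Mt-nd4l to Mt-nd4 between 4.36% and 36.6%, without single libraries. Where no cause is named, the cause was not tested. No paired analysis was possible because the labels name no pairs of young and old animals. Nor could the replicate numbers serve as a block, because the old columns carry numbers other than those of the old animals. Denominators that need the names of the other mitochondrial mRNAs were not run. The depth is unknown, so what it limits cannot be stated.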
